A study of Mus musculus with 4 samples.

Results

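The genes described here carry the names of enzyme families that add or remove methyl and acetyl groups on histone lysines. They were chosen by symbol, so a few, such as Setd3, encode enzymes with other substrates. They were taken as the protein-coding RefSeq genes of the mouse assembly GRCm38.p6 whose symbol begins with Kmt, Setd, Kdm, Kat or Hdac followed by a digit, which gave 53 of 21900 protein-coding genes. MOV10 peaks were counted in a gene when the peak midpoint lay inside the annotated gene span, whether or not another gene overlapped it. By this count 14 of the 53 genes held 87 of the 12236 peaks in the list.

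The peaks came from eCLIP of the RNA helicase MOV10 in N2A cells, an established mouse neuroblastoma line grown in serum-containing medium, with no treatment or genetic change named in the labels. In eCLIP, protein is crosslinked to RNA by ultraviolet light and immunoprecipitated, and the RNA fragments that come with it are sequenced beside an input from the same kind of cells. There were 2 libraries from anti-MOV10 immunoprecipitates and 2 inputs, and nothing in the labels says whether they came from separate cultures. The comparison was immunoprecipitate against input. A single list of reproducible peaks combined all 4 libraries, so each peak had 1 log2 fold enrichment and 1 −log10 p, both the authors' own. No spread between replicates, no sequencing depth and no test between samples could be given for any gene, and all values below are descriptions of that list. The lowest log2 fold enrichment in it was 3.001 and the lowest −log10 p was just above 3, so weaker peaks are not represented, and a gene without a listed peak may still be bound or may not be expressed. Markers of the labelled cell type were in part represented among genes with peaks. Of 15 neuronal and sympathetic lineage markers 6 held peaks, Map2, Mapt, Stmn2, Ret, Gata2 and Ncam1, while 9 did not, Tubb3 and Th among them. Of 5 glial, 4 fibroblast and 3 blood markers, 0 had a peak. Since only 8.53% of all coding genes had one, 0 in lists this short says little about cell type.

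Histone lysine methylation is written mostly by SET-domain methyltransferases, some of them named Kmt or Setd, and erased by demethylases, many of them named Kdm. Acetylation is written by acetyltransferases, among them the Kat enzymes, and erased by deacetylases, among them the Hdac enzymes. The 2 marks help to set which genes of a cell are open to transcription, and mutations in several of these enzymes cause neurodevelopmental disorders or cancer. MOV10 works with Argonaute proteins in microRNA silencing, mostly on the 3′ untranslated regions of messenger RNAs.

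The enzyme genes held MOV10 peaks more often than coding genes as a whole. Peaks were found in 14 of 53 genes (26.4%), against 8.53% of all 21900 coding genes. The enzyme genes are long, with a median span of 45.5 kb against 17.2 kb for all coding genes, and all 14 with a peak were longer than 15 kb. Among genes of at least 15 kb the shares were 29.8% (14 of 47) and 13.2%. When only peaks enriched 16-fold or more (a log2 value of 4) were counted, 8 of the 53 genes (15.1%) and 3.59% of coding genes still had one. Transcript abundance in the input was not known, and its part in these shares was not tested.

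The 16 Kmt and Setd genes, named as methyltransferases, held most of the peaks. They held 57 of the 87 peaks (65.5%) in 7 genes, 3 of 8 Kmt genes (37.5%) and 4 of 8 Setd genes (50.0%). Of these 57 peaks, 41 lay in 2 genes, Setd7 and Kmt5a. Acetyltransferases held peaks in 3 of 8 genes (37.5%) with 14 peaks. Demethylases held them in 3 of 18 (16.7%) with 15 peaks, of which 11 lay in Kdm7a. Deacetylases held a single peak, in 1 of 11 genes (9.09%), a share close to the 8.53% of all coding genes. The numbers of genes per family are small, and differences between families were not tested.

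**Figure D1:**
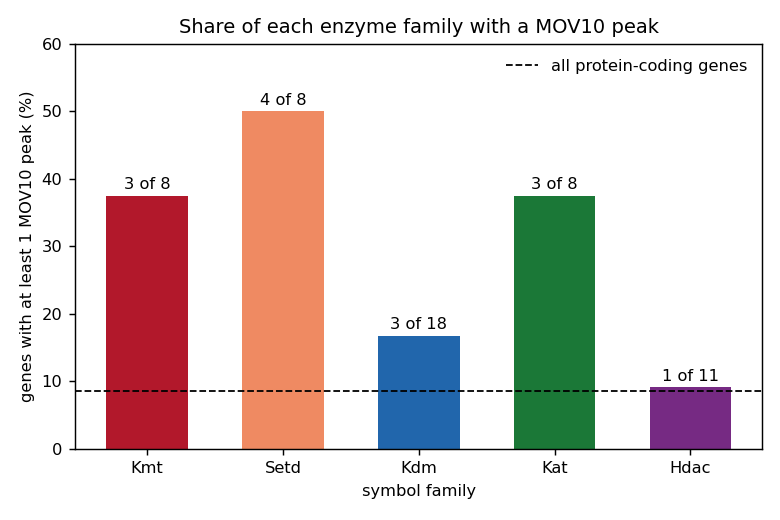
Share of the genes of each family with at least 1 MOV10 peak (percent, vertical axis), with counts above the bars; the dashed line is the share of all protein-coding genes, 8.53%. The Kmt, Setd and Kat bars stand at 37.5% to 50.0%, Kdm at 16.7%, and Hdac at 9.09%, next to the dashed line.

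Peaks were concentrated in a few of the 14 genes. Setd7 (22 peaks) and Kmt5a (19) together held 47.1% of all peaks of the group, and with Kdm7a (11) 59.8%. Kat2b held 7, Kmt2d and Kat6a held 6 each, another 4 genes held between 2 and 4, and 4 held 1. The median was 3.5 peaks per gene, against 3 in all coding genes with a peak, and 28.6% had a single peak against 29.2%. With 10 or more peaks there were 3 enzyme genes (5.66% of 53), against 1.83% of all coding genes. Among genes with a peak these were 3 of 14 and 400 of 1868, about the same share. Taking the strongest peak of each gene, the median log2 fold enrichment was 4.14 in the 14 genes and 3.84 in all coding genes with a peak (interquartile range 3.42 to 4.39). The order turned, to 4.38 and 4.50, when peaks below 4 were left out. The span of the strongest values, from 3.03 in Kdm2a and Hdac4 to 5.47 in Kmt5a and Setd7, reached from near the floor of the list to well above that range.

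**Figure D2:**
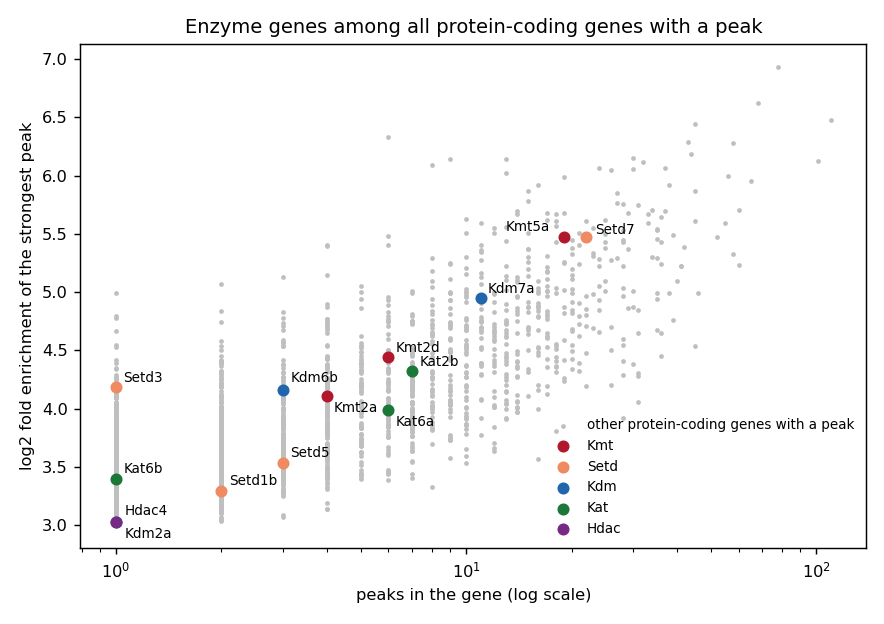
Number of peaks per gene (horizontal, log scale) against the log2 fold enrichment of its strongest peak (vertical) for every protein-coding gene with a peak (grey), with the 14 enzyme genes coloured by family; the points of Kdm2a and Hdac4 coincide at 1 peak and 3.03. Setd7 and Kmt5a lie at 22 and 19 peaks and 5.47, Kdm7a at 11 peaks and 4.95, and the others at 7 peaks or fewer.

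Kmt5a, also called Setd8 or PR-Set7, is the methyltransferase that monomethylates histone H4 in connection with DNA replication and mitosis. Its gene lies on chromosome 5 (124439930 to 124462311, plus strand, GRCm38) and spans 22.4 kb. All 19 peaks lay in 1235 nt near the 3′ end, between 123.5 and 1332.5 nt from it, where distances are measured from the peak midpoint to the annotated end. The strongest (124461824 to 124461906) was enriched 44.5-fold, a log2 value of 5.47, with a −log10 p of 26.6. A second peak 204.5 nt from the end, at 124462088 to 124462125, also had 5.47, and 3 more at 501.5, 529.5 and 168 nt had 5.35, 5.13 and 5.0002. These were 5 of the 6 peaks of at least 5 in the whole group. Enrichment was unequal along the 1235 nt. The 14 peaks within 1 kb of the end had a median of 4.59, and the 5 farther away had a median of 3.28 with a highest value of 3.89. The best −log10 p in the gene, 42.8, belonged to a peak of 4.34 at 646.5 nt. Peaks were narrow, with a median of 35 nt, and many touched, so that the 19 made up 9 separate intervals covering 841 nt. Of the 1868 coding genes with a peak, 65 (3.48%) had a stronger leading peak and 132 (7.07%) had more peaks.

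Setd7, or Set7/9, methylates histone H3 and many non-histone proteins. Its gene on chromosome 3 (51515318 to 51560823, minus strand) spans 45.5 kb and held the most peaks of the group, 22 in 17 separate intervals covering 1404 nt. They stretched over 5247 nt, from 127.5 to 5332.5 nt before the 3′ end, and 20 of them lay within 5 kb of it. The strongest was a peak of 22 nt at 51517754 to 51517775, 2446.5 nt from the end, with 5.47 (44.3-fold) and a −log10 p of 21.5. It stood well above the rest of the gene, whose next value was 4.52, at 1232 nt. The peak with the best −log10 p, 27.6, lay 353 nt from the end at 4.06. Unlike in Kmt5a, the 6 peaks within 1 kb of the end and the 16 beyond it had nearly the same median, 3.80 and 3.87. All 22 peaks had a −log10 p of at least 5, as did all 19 of Kmt5a. Of coding genes with a peak, 67 (3.59%) had a stronger leading peak and 98 (5.25%) had more peaks.

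**Figure D3:**
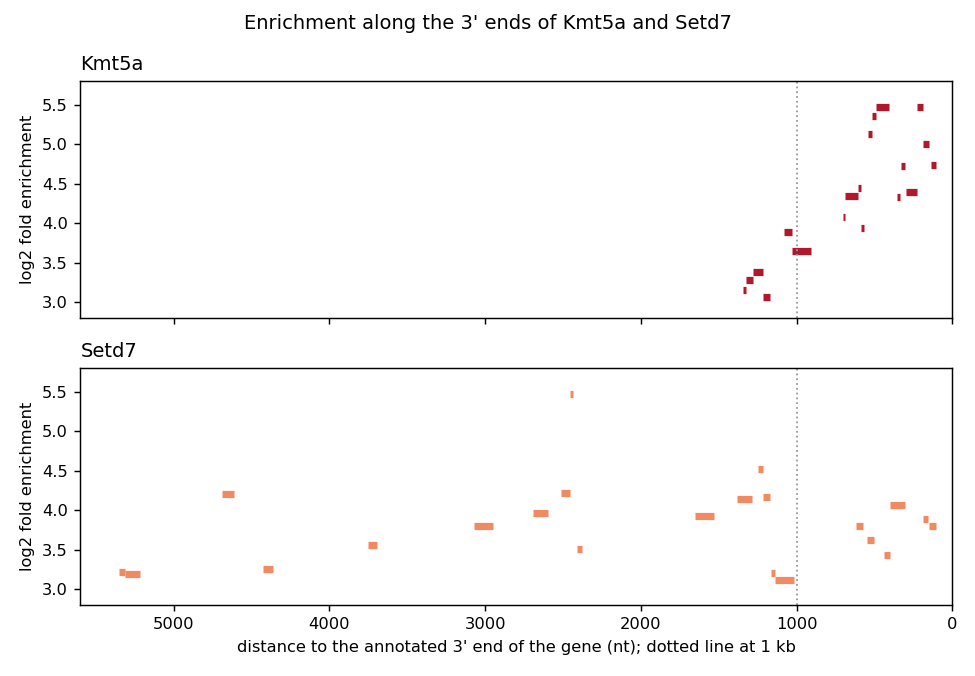
Log2 fold enrichment (vertical) of each peak of Kmt5a and Setd7 against its distance to the annotated 3′ end in nt (horizontal, 3′ end at the right); each bar spans the peak's width. The Kmt5a peaks end at 1332.5 nt and are higher within 1 kb of the end (median 4.59 against 3.28), while those of Setd7 reach 5332.5 nt with 1 high value of 5.47 at 2446.5 nt.

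Kmt2a and Kmt2d, which encode MLL-type methyltransferases of histone H3 at promoters and enhancers, held fewer peaks. Kmt2d on chromosome 15 (98831669 to 98874077, minus strand) had 6, at 220 to 2265 nt from the 3′ end. In order from that end their log2 fold enrichments were 3.29, 3.46, 3.54, 3.80, 4.44 and 3.07, so the highest was the fifth, at 98833602 to 98833673. Kmt2a on chromosome 9 (44803355 to 44881352, minus strand) had 4, with 3.05, 3.56, 4.11 and 3.23 at 1806, 2062.5, 2885 and 3738.5 nt. It had no peak in the last 1.8 kb of the gene, where most other enzyme genes had theirs. The related genes Kmt2b, Kmt2c and Kmt2e had none, nor did Kmt5b and Kmt5c beside Kmt5a.

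Setd3, Setd5 and Setd1b had from 1 to 3 peaks each. Setd3, which encodes an actin histidine methyltransferase rather than a histone enzyme, had a single peak, but one of 280 nt, the widest of the group, on chromosome 12 (108106813 to 108107092, 521.5 nt from the end). Its log2 fold enrichment was 4.19 and its −log10 p 12.3. Setd5, a SET-domain gene mutated in intellectual disability, had 3 peaks on chromosome 6, with 3.54 at 545 nt, 3.001 at 1490.5 nt and 3.23 at 1567.5 nt. Setd1b, a catalytic subunit of a SET1 complex that methylates histone H3, had 2 on chromosome 5, with 3.30 and 3.24 at 1951 and 2223 nt. The −log10 p of both was low, 3.02 and 3.22. Setd1a, Setd2, Setd4 and Setd6 had no peak.

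Among the demethylases, Kdm7a stood out. It encodes a JmjC-domain enzyme that removes repressive methyl marks from histone H3. Its gene on chromosome 6 (39136620 to 39206773, minus strand) held 11 peaks at 344 to 3657 nt from the 3′ end, all of which also lay inside the span of the long non-coding RNA gene 4930599N23Rik. That gene is annotated on the plus strand and the 11 peaks are on the minus strand, that of Kdm7a. The strongest value, 4.95 at 39140161 to 39140229, lay 3575 nt from the end and had a −log10 p of only 4.90. Among the 9 peaks with a −log10 p of at least 5 the highest was 3.96, at 344 nt. The ranking of Kdm7a as the third strongest of the group thus rests on 1 peak.

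Kdm6b, which encodes JMJD3, an eraser of the Polycomb mark on histone H3, had 3 touching peaks on chromosome 11 that formed 1 interval of 140 nt, 65 to 172.5 nt from the 3′ end. Their log2 fold enrichments were 3.24, 3.68 and 4.16 going away from the end, and their −log10 p values were 8.07, 17.0 and 21.1. The nearest of them was the closest to a gene end in the group. Kdm2a, a CpG-island-binding demethylase of histone H3, had 1 peak on chromosome 19 (4316424 to 4316476) at 306 nt, with 3.03 and a −log10 p of 4.71. The other 15 Kdm genes had none: Kdm1a, the LSD1 gene, Kdm1b, Kdm2b, Kdm3a, Kdm3b, the 4 Kdm4 genes, the 4 Kdm5 genes, Kdm6a and Kdm8. Kdm5d lies on the Y chromosome, on which the list has no peak.

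**Figure D4:**
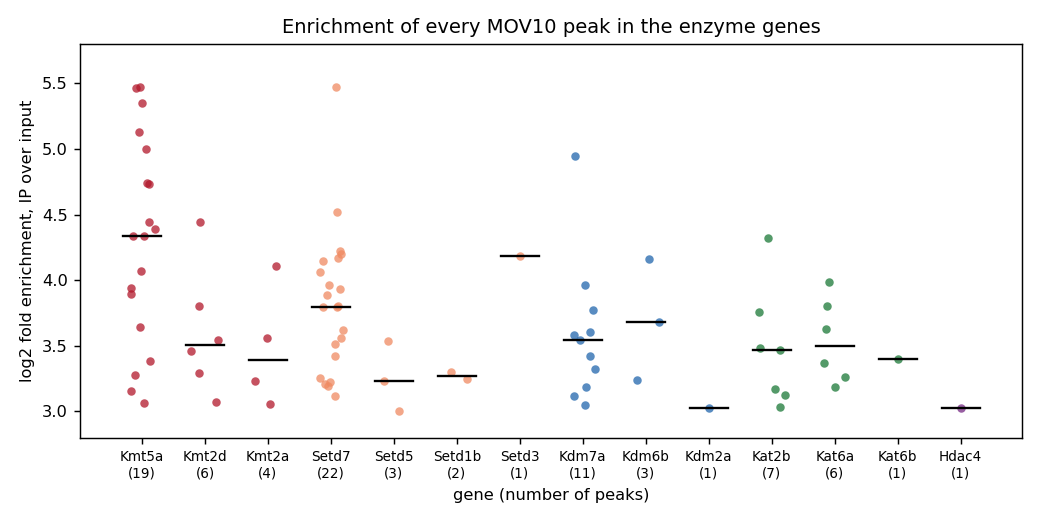
Log2 fold enrichment of each MOV10 peak (points) in the 14 enzyme genes, with the number of peaks in parentheses and the median as a bar, coloured by family. Kmt5a has the highest median among genes with several peaks, 4.34, and Kdm7a and Setd7 each have 1 peak well above their others, at 4.95 and 5.47.

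Acetyltransferase peaks lay in Kat2b, Kat6a and Kat6b. Kat2b, the PCAF gene, a coactivator acetyltransferase, had 7 peaks on chromosome 17 (gene 53566774 to 53672721, plus strand), at 230.5 to 1554.5 nt from the 3′ end. The strongest, 4.32 (20.0-fold) at 53672312 to 53672466, was flanked by touching peaks of 3.76 and 3.48, and the 4 farther away had 3.03 to 3.47. Kat2a, its paralogue GCN5, had none. Kat6a, the MOZ gene, had 6 peaks on chromosome 8 at 680.5 to 1845 nt, with log2 fold enrichments of 3.18 to 3.99 and −log10 p values of 6.07 to 13.5. Its paralogue Kat6b had 1, of 3.40 and −log10 p 3.75, on chromosome 14 (21517281 to 21517406). That peak was the only one of the 87 far from a 3′ end, 155134.5 nt from it and 18127.5 nt from the 5′ end. Kat5, Kat7, Kat8 and Kat14 had no peak. The annotation holds pseudogenes of Kat2b and Kat6b, in which 0 peaks were listed, and whether reads were shared with them is not known.

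Of the deacetylases, Hdac4 alone had a peak. Hdac4 is a class IIa enzyme that moves between cytoplasm and nucleus with neuronal and muscle signals. Its peak on chromosome 1 (91929407 to 91929546) lay 697.5 nt from the 3′ end of a gene of 266.9 kb, with 3.03 and a −log10 p of 5.90. Of coding genes with a peak, 98.0% had a stronger leading peak. The class IIa genes Hdac5, Hdac7 and Hdac9 and the class I genes Hdac1, Hdac2, Hdac3 and Hdac8 had none, nor had Hdac6, Hdac10 and Hdac11.

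Most peaks of the enzyme genes lay near 3′ ends, as did most peaks of coding genes as a whole. The choice of genes did not use position. Of 87 peaks, 84 (96.6%) were at most 5 kb away from the end of the gene on its 3′ side, against 85.9% of peaks in all coding genes of at least 15 kb. Within 2 kb the shares were 75.9% and 58.8%. The median distance was 1151.5 nt, against 1615.25 nt. Counted by gene, the shares were closer to those of all coding genes of at least 15 kb with a peak. The strongest peak lay within 5 kb in 92.9% of the enzyme genes with a peak, against 89.0%. All peaks lay within 5 kb in 12 of 14 enzyme genes, against 1255 of 1550 coding genes. The 3 peaks outside 5 kb were that of Kat6b and 2 of Setd7 at 5266 and 5332.5 nt. Within 5 kb of a 5′ end there were 0 of the 87 peaks, and such peaks were rare in all coding genes of at least 15 kb, 43 of 10866. In totals over all coding genes a peak counted once for each coding gene that held it. By 500 nt steps from the end, there were 21, 18, 17 and 10 peaks in the last 2 kb, 9 in the next step, and 9 from there to 5 kb. The last 500 nt held peaks of 7 genes. Peaks of one gene are not independent, and without Setd7 and Kmt5a, left out after their values were known, the share within 5 kb was 97.8% of 46 peaks. How many of these peaks lie in 3′ untranslated regions was not determined, since only gene spans entered the count.

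**Figure D5:**
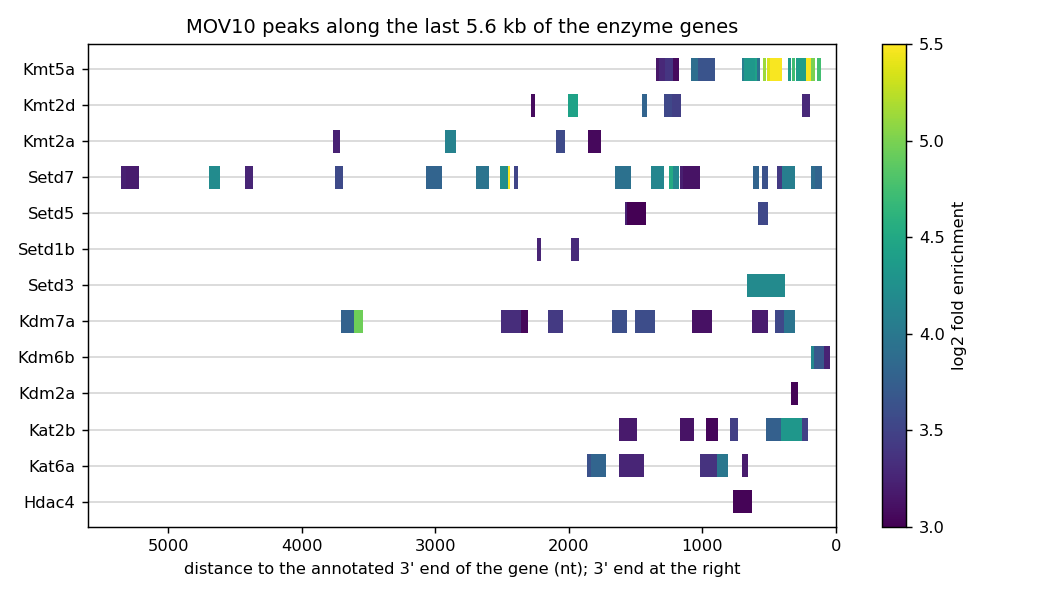
Position of every peak in the last 5.6 kb of 13 enzyme genes, with the distance to the annotated 3′ end in nt on the horizontal axis (3′ end at the right), each box as wide as its peak and coloured by log2 fold enrichment. Boxes crowd in the last 2 kb, Kmt2a has none there except at 1806 nt, and Setd7 extends to 5332.5 nt; Kat6b, whose peak lies 155134.5 nt away, is not drawn.

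Each of the 14 genes had peaks on 1 strand alone, which for the 4 genes with a single peak could not be otherwise. For 10 of them the annotation used here gave a strand, and all their peaks were on it; for Kat6a, Kdm2a, Kdm6b and Setd1b the direction was taken from the peaks themselves. Among all coding genes with a peak and an annotated strand, 1428 of 1488 had every peak on the strand of the gene. In the 10 kb past the 3′ end of the 45 enzyme genes with a known direction, 0 peaks were listed on the same strand. The same count was not made for all coding genes, so whether this is unusual is not known.

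Enrichment over single peaks was close to that of coding genes as a whole. Over the 87 peaks the median log2 fold enrichment was 3.60, against 3.70 over the peaks of all coding genes, and 25 (28.7%) reached 4, against 33.2%. Of these 25, 19 were in Kmt5a and Setd7. The −log10 p reached 10 in 41 peaks of 8 genes, 30 of them in the same pair. The median −log10 p was 9.66 over the 87 peaks, against 10.09 over the peaks of all coding genes. The strongest peak lay within 2 kb of the 3′ end in 10 of the 14 genes (71.4%). The share was 74.0% of all coding genes of at least 15 kb with a peak. The exceptions among the enzyme genes were Setd7, Kmt2a, Kdm7a and Kat6b. Peaks were 15 to 280 nt wide, with a median of 64 nt, against 74 nt.

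Genes outside the group with the same number of peaks and the nearest median distance to the 3′ end were named for the 3 leading members. For Setd7, with a median of 1462 nt, they were Zfp91 (1536.25 nt), whose 22 peaks all lay in a second gene too, and Ddx6 (1240 nt), out of 7 genes with 22 peaks. For Kmt5a (577.5 nt) they were Lsm12 (525 nt) and Jph4 (678 nt), out of 11 with 19 peaks. For Kdm7a (1620 nt) they were Tspan2 (1628.5 nt) and Shisal1 (1548 nt), out of 31.

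Genes that act in the same reactions but carry other names were counted from lists written from general knowledge. Over 7 lists, 25 of 116 genes (21.6%) held peaks, 142 in all, with a median strongest log2 fold enrichment of 3.80. The background share is the 8.53% of all coding genes given above, or 13.2% of those of at least 15 kb. The lists were not matched to coding genes in span. Among other lysine methyltransferases 4 of 20 held peaks, Dot1l, the methyltransferase of the histone H3 core (7 peaks up to 4.52), Nsd2 (12 up to 4.46), Ash1l (1 at 3.30) and Nsd3 (1 at 3.16). The Polycomb enzymes Ezh1 and Ezh2 and the heterochromatin enzymes Suv39h1, Suv39h2, Ehmt1 and Ehmt2 had none. Of 11 other JmjC proteins 2 held peaks, Phf8, a demethylase related to Kdm7a (6 up to 4.43), and Jarid2, a Polycomb cofactor without demethylase activity (7 up to 3.94). Of 11 other acetyltransferases 3 did, Gtf3c4 (5 up to 3.52), Ncoa2 (2 up to 3.31) and Taf1 (1 at 3.13), while Crebbp and Ep300 did not. The 7 sirtuins, deacetylases that depend on NAD, had 0 genes with a peak. Several of these counts were lower with stricter thresholds. With peaks of −log10 p of at least 5 they were 2 of 20 methyltransferases and 1 of 11 acetyltransferases, and with log2 values of at least 4 they were 2 methyltransferases, 1 JmjC protein and 0 acetyltransferases.

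Partner subunits of these enzymes had peaks as well. Of 28 partners of deacetylases 6 (21.4%) held 55 peaks, with a median strongest value of 4.45. Of the 11 deacetylase genes 1 (9.09%) held a single weak peak, and the share of all coding genes was 8.53%. The numbers of genes are small, and the difference between partners and deacetylases was not tested. Tbl1xr1, a subunit of the NCoR corepressor complex that holds HDAC3, led the partners. It held 29 of the 55 peaks, up to 5.37, 24 of them within 5 kb of the 3′ end. Its relative Tbl1x had 8 up to 4.31, the NuRD subunit genes Gatad2a and Gatad2b 10 up to 4.59 and 1 at 3.25, and the CoREST genes Rcor1 and Rcor3 6 up to 3.92 and 1 at 4.66. Of 27 partners of acetyltransferases 8 held 36 peaks, led by Msl1, a scaffold of the complex that holds KAT8 (13 up to 5.56), all 13 of which also lay in a second gene. The others were Usp22 (7 up to 3.86, of which 6 lay in a second gene), Jade1 (7 up to 3.80), Jade2 (3 up to 3.60), Brpf3 (2 up to 3.67), Ing5 (2 up to 3.22), Kansl1 (1 at 3.59) and Kansl2 (1 at 3.30). Of 12 partners of MLL and SET1 enzymes 2 did, Hcfc1 (8 up to 4.11) and Ncoa6 (1 at 3.08), while the shared core genes Wdr5, Rbbp5, Ash2l and Dpy30 had none. At −log10 p of at least 5, or at log2 values of at least 4, 1 of these 12 kept a peak, and at the latter 1 of the 27 acetyltransferase partners did.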

How the data were processed

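One list of 12236 MOV10 peaks was used, which the authors made from 2 immunoprecipitates and 2 inputs after an irreproducible discovery rate step, as its name states. The submitters' processing notes name the builds mm10 and GRCm38.p6. The sources used here give no aligner, peak caller or cut-offs. The list has no header. Its first value column was read as the deposited −log10 p and its second as the deposited log2 fold enrichment, from their ranges and the usual order of eCLIP files. If either reading is wrong, statements on strength change and those on position do not.

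Starts were converted to count from 1. Gene spans came from RefSeq GRCm38.p6, and strands from its promoter table where listed, otherwise from the peaks. A peak counted for every gene whose span held its midpoint, so the share of coding genes with a peak, 8.53%, exceeds the 7.70% found with peaks in exactly 1 gene. Shares and medians over the peaks of all coding genes thus rest on 12247 pairs of peak and gene. The assignment of peaks to genes was checked on simulated peaks in genes with an annotated strand (Python 3.11.15, pandas 2.3.3). Other steps were not checked in this way. Every enzyme gene with a peak was to be named. Members, lists and this rule were chosen with earlier results of these data known. Alternatives covered thresholds, merging, overlap, window and span.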

Additional observations from a re-analysis of the deposited data

How the results depend on the processing

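Of 69 values recomputed under alternatives, 52 stayed within 1.5 times (counts), within the exact 95% interval (share, 90.3 to 99.3%) or at the same second decimal (medians). That interval counts every peak as independent, which peaks of one gene are not, so it served only as a limit for calling a share unchanged. Of the 52, at least 9 could not have moved. For the sirtuins these were 4, at 0 under settings that remove or merge peaks. On gene span they were 5, since every enzyme gene with a peak exceeds the minimum. Others had little or no room to move. Requiring peaks on the gene strand removed none, since no enzyme gene had a peak on the opposite strand. Merging kept the highest value, and leaving out Setd7 and Kmt5a could only give 12 of 14 genes. The 52 thus overstate how much was put to the test. With peaks of log2 fold enrichment of at least 4, the counts were 8 genes and 25 peaks, the median strongest value 4.38 (all coding genes 4.50, so the order turned) and the share within 5 kb of the 3′ end 100%. The same threshold left 2 genes among other methyltransferases, 1 among other JmjC proteins, 0 among other acetyltransferases, 1 among MLL and SET1 partners and 1 among acetyltransferase partners. With −log10 p of at least 5 the median was 4.16 (all coding genes 3.96), and these lists held 2 methyltransferases, 1 acetyltransferase and 1 MLL and SET1 partner. Counting peaks in exactly 1 gene removed Kdm7a and gave a median of 4.11. A window of 2 kb gave 75.9%. Without Setd7 and Kmt5a, chosen after seeing the data, 46 peaks and a median of 4.05 remained. No paired analysis was possible because the list gives 1 value per peak over all libraries; for the same reason no replicate could be left out. The depth of the libraries was not known.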
